A study of Arabidopsis thaliana with 32 samples.

Results

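The 35 glucosinolate genes described here are the rows of the deposited gene table whose identifiers are on a list of glucosinolate pathway genes, out of 21525 genes in all. Of the 35, 18 belong to the aliphatic branch, 8 to the indolic branch and 5 to steps shared by both branches, 2 encode transporters and 2 encode myrosinases. They were chosen by their place in the pathway, with earlier results of these data known, and all 35 passed the filter on low values.

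RNA was sequenced from leaves of Arabidopsis thaliana, wild type Col-0, grown for 6 to 7 weeks in 8 h days under a light of 100 µmol photons per m2 and s. The plants were treated for 3 h and received either the PSI-PI treatment, which photoinhibits photosystem I, or growth light (GL), at 0, 100, 400 or 1000 ppm CO2. A PSI-PI cycle held 30 s at 100 µmol and 3 repeats of 5 s of red light at 35 µmol with a 1 s pulse at 1000 µmol. Each of the 8 groups, PSI-PI and GL at each CO2 level, had 4 biological replicates, which makes 32 leaves. RNA came from the seventh leaf of a plant. Whether the replicates of a group were treated in separate runs is not given in the sources used here, so the p-values measure the spread between these leaves. All values are normalized counts, which were not divided by gene length, so levels are compared between leaves and never between genes.

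Glucosinolates are sulfur-rich defence compounds of the mustard family. The aliphatic ones are made from methionine, whose side chain is first lengthened in the plastid, and the indolic ones from tryptophan. Cytochromes P450 of the CYP79 and CYP83 families turn the amino acid into an activated oxime, sulfur is added from glutathione, and a C-S lyase, a glucosyltransferase and a sulfotransferase finish the core structure. MYB28, MYB29 and MYB76 are the transcription factors of the aliphatic branch, and MYB34, MYB51 and MYB122 those of the indolic branch. When tissue is damaged, myrosinases remove the glucose and toxic products form.

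Normalized counts summed to between 18494378 and 31211055 in a leaf. The 5 leaf markers summed to at least 261500 in every leaf. Of the 5 root markers 1 was in the table, PYK10, at 0 to 1303, and the flower markers (3 of 4 in the table) summed to 6.56 to 41.7. A leaf was also compared with the mean of the other leaves of its group. Replicate 1 of PSI-PI at 0 ppm stood farthest apart, with 21.8% of 21469 genes at least 2-fold away (an absolute log2 difference of at least 1), against 3.73% to 12.6% in the other 31 leaves. Its differences over the 21469 genes resembled those of replicate 2 of GL at 0 ppm (Pearson r = 0.580), the highest of the 16 pairs of 0 ppm leaves, which ranged down to -0.505. Genes within a leaf share a library, so this r is only a description. In whole leaves, fewer cells of a type and less RNA per cell cannot be told apart.

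A gene was called a differentially expressed gene (DEG) where the absolute log2 fold change was at least 1 and the adjusted p under 0.05 (limma on log2 of the normalized count plus 1, Benjamini-Hochberg over all genes tested, two-sided). At 1000 against 400 ppm in PSI-PI, 10 of the 35 genes were upregulated and 0 downregulated, where 0.317% of all genes were upregulated and 0.144% downregulated. In GL the same comparison gave 0 of 35 (0.233% of all genes), with 3 at an unadjusted p under 0.05, as had 2254 of all 21469 genes. At 0 against 400 ppm, 4 were upregulated and 0 downregulated in PSI-PI (2.31% and 2.36% of all genes), and 0 were upregulated and 2 downregulated in GL (4.49% and 5.68%).

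At 100 against 400 ppm, 1 was upregulated and 1 downregulated in PSI-PI (2.66% and 1.98% of all genes), and 0 were upregulated and 2 downregulated in GL (4.26% and 3.89%). At 0 against 100 ppm there were 3 upregulated and 2 downregulated genes in PSI-PI (3.56% and 6.26% of all genes), and 4 and 2 in GL (4.58% and 8.16%). PSI-PI against GL gave 0 upregulated and 2 downregulated genes at 400 ppm (3.28% and 2.91% of all genes). It gave none by limma at 0 ppm (1.34%), 100 ppm (2.06%) or 1000 ppm (2.62%), where 3, 5 and 6 of the genes had an unadjusted p under 0.05. Of all 21469 genes, 4745 had such a p at 0 ppm and 5025 at 100 ppm. The 6 at 1000 ppm were not set against all genes. Read against the shares of DEGs, the 10 genes at 1000 ppm in PSI-PI stood out from the background. The other counts differed from it by a few genes. The 10 rested on single leaves: the count was 0 without replicate 3 of PSI-PI at 400 ppm and 17 without replicate 2. The members were chosen with earlier results known, so setting them against the background is only a description. The CO2 comparisons within a light share their 400 ppm or 100 ppm leaves, so they are not independent of each other.

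**Figure D1:**
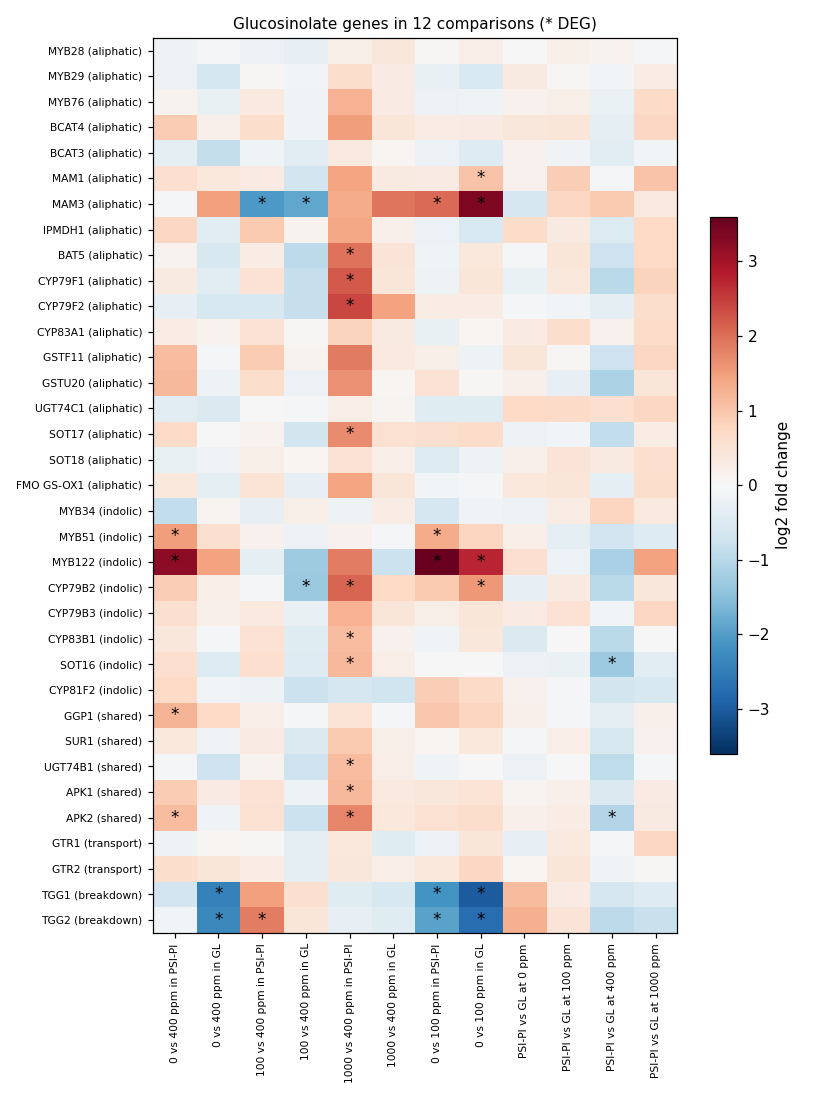
Colour gives the log2 fold change (limma) of each of the 35 genes, in rows by branch, for 12 comparisons in columns, and a star marks a DEG. The column for 1000 against 400 ppm in PSI-PI holds 10 stars, all for upregulated genes, and the myrosinases TGG1 and TGG2 at the bottom are blue wherever 0 ppm is set against 100 ppm.

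The 200 bases before the annotated start are printed for 4 genes that rose together at 1000 ppm in PSI-PI and hold an AC element there, and for CYP79F1, which rose with its neighbour CYP79F2 and holds none. AC elements are motifs bound by some plant MYB proteins, searched here on both strands as ACCTACC, as its relative ACCAACC and in the form ACCTAAC. Capitals mark the AC element, which in BAT5 and UGT74B1 lies on the opposite strand, so that ACCAACC appears as GGTTGGT. The sequences are from RefSeq, assembly TAIR10.1, and each is given 5′ to 3′ on the strand of its gene.
CYP79F2 (chr1:5604844-5605043, plus strand): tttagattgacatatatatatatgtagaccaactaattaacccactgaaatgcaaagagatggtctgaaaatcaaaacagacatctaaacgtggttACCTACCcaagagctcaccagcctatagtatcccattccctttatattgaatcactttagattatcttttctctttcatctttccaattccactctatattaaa
CYP79F1 (chr1:5608482-5608681, plus strand): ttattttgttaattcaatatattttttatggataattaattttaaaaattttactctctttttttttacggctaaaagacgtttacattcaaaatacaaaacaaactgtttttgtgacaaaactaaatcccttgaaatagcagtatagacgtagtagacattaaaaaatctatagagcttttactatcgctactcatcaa
BAT5 (chr4:7210607-7210806, plus strand): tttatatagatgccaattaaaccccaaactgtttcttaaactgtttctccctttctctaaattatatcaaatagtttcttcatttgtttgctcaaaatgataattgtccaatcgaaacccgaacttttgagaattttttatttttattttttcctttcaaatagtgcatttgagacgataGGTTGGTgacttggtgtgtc
SOT17 (chr1:6398331-6398530, plus strand): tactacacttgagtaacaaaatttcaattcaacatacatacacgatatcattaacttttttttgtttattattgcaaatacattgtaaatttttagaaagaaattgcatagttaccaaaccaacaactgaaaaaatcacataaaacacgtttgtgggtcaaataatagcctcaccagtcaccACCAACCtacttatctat
UGT74B1 (chr1:8527088-8527287, minus strand): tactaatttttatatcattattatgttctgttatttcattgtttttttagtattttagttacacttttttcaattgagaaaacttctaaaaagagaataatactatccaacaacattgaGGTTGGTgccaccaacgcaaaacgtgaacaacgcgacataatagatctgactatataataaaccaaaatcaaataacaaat

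The AC element lay 104 bases before the start of CYP79F2, 20 before BAT5, 18 before SOT17 and 81 before UGT74B1. Of the 35 windows, 7 held one (20.0%): those of BAT5, CYP79F2, CYP83A1, SOT17 and FMO GS-OX1 among the 18 aliphatic genes, and those of SUR1 and UGT74B1 among the 5 shared genes. None of the 8 indolic windows did. Among the DEGs at 1000 against 400 ppm in PSI-PI, CYP79F1, CYP79B2, CYP83B1, SOT16, APK1 and APK2 had no AC element. CYP83A1, FMO GS-OX1 and SUR1 had an AC element and were not DEGs there. Of 27443 windows of the same length before protein-coding genes, 5.07% held one. The G-box (CACGTG, the same on both strands), bound by many bHLH and bZIP proteins, was in the windows of CYP83A1 and SUR1 and in 5.64% of all windows. No AC motif contains the G-box or lies within it. A match is a description of the letters and not a binding site.

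None of the 3 regulators of the aliphatic branch was a DEG in a comparison by limma. MYB28 (AT5G61420), a main activator of the methionine-derived pathway, had 2123, 1283, 1371 and 1910 normalized counts in PSI-PI-treated leaves at 1000 ppm, against 1461, 1769, 1326 and 1171 in PSI-PI at 400 ppm. The leaves of both levels overlapped, with a log2 fold change of 0.21 ± 0.15 (SE, n = 4 leaves a group; limma adjusted p = 0.519). In GL all 4 leaves at 1000 ppm, at 1538 to 1875, were above the 4 at 400 ppm, at 1279 to 1324, and the log2 fold change was 0.41 (limma adjusted p = 0.271).

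MYB29 (AT5G07690) and MYB76 (AT5G07700) are activators that act beside MYB28. Their log2 fold changes at 1000 against 400 ppm in PSI-PI were 0.64 ± 0.42 for MYB29 and 1.25 ± 0.45 for MYB76 (SE, limma adjusted p = 0.470 and 0.149). MYB76 stayed low in all leaves, at 14.0 to 93.0 normalized counts.

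Of the indolic regulators, MYB51 (AT1G18570) and MYB122 (AT1G74080) were upregulated in leaves without CO2 in PSI-PI, and MYB34 (AT5G60890) was not. MYB51, a main activator of indolic synthesis in shoots, had 838, 3242, 3910 and 2625 normalized counts at 0 ppm in PSI-PI, against 922, 1251, 581 and 657 at 400 ppm. The first of these leaves lay inside the 400 ppm range and the other 3 lay above it. On the log2 scale the difference was 1.50 ± 0.38 against 400 ppm (limma adjusted p = 0.00807) and 1.34 ± 0.38 against 100 ppm (limma adjusted p = 0.00854). It kept both calls without each single leaf, and against 400 ppm it was 1.98 without replicate 1. In a fit of only the 0 and 400 ppm leaves in PSI-PI, MYB51 was not a DEG.

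In GL at 0 ppm, MYB51 had 3602, 897, 2413 and 1903 normalized counts, against 1475, 1856, 1057 and 1055 at 400 ppm. Again 1 leaf, replicate 2, was the low one and the other 3 lay above all 400 ppm leaves. It differed by a log2 fold change of 0.57 (limma adjusted p = 0.264).

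MYB122, a minor activator of the branch, was near the floor of the measurement in most leaves. At 0 ppm in PSI-PI it had 136, 5.14, 19.7 and 4.12 normalized counts, against 0, 0, 1.14 and 1.18 at 100 ppm and 1.18, 4.51, 0 and 0 at 400 ppm. Replicate 1 alone set the mean at 0 ppm, and the 0 and 100 ppm leaves did not overlap. On the log2 scale with 1 added it rose by 3.56 against 100 ppm and 3.22 against 400 ppm (limma adjusted p = 0.00631 and 0.0204), and without replicate 1 the difference from 400 ppm was 2.22 and no longer a DEG (limma adjusted p = 0.125).

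In GL, MYB122 had 9.64, 64.6, 3.83 and 3.97 normalized counts at 0 ppm, against 0, 0, 0 and 7.53 at 100 ppm, and replicate 2 was the high leaf. The log2 fold change of 2.74 (limma adjusted p = 0.0286) fell to 1.89 without that leaf and was then not a DEG (limma adjusted p = 0.140). At counts this low the size of the fold change depends on the added 1.

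MYB34, the regulator of indolic synthesis most known from roots, went the other way in PSI-PI. It had 219, 122, 142 and 151 normalized counts at 0 ppm, against 308, 313, 269 and 267 at 400 ppm, and the groups did not overlap. The log2 fold change of -0.89 ± 0.23 passed the adjusted p (limma, 0.00902) but not the 2-fold minimum. At 400 ppm, PSI-PI-treated leaves lay above the GL-treated ones, which had 120, 177, 201 and 186 (log2 fold change 0.78, limma adjusted p = 0.0149). Without replicate 1 of GL at 400 ppm this difference was 0.62 and no longer passed (limma adjusted p = 0.0755).

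**Figure D2:**
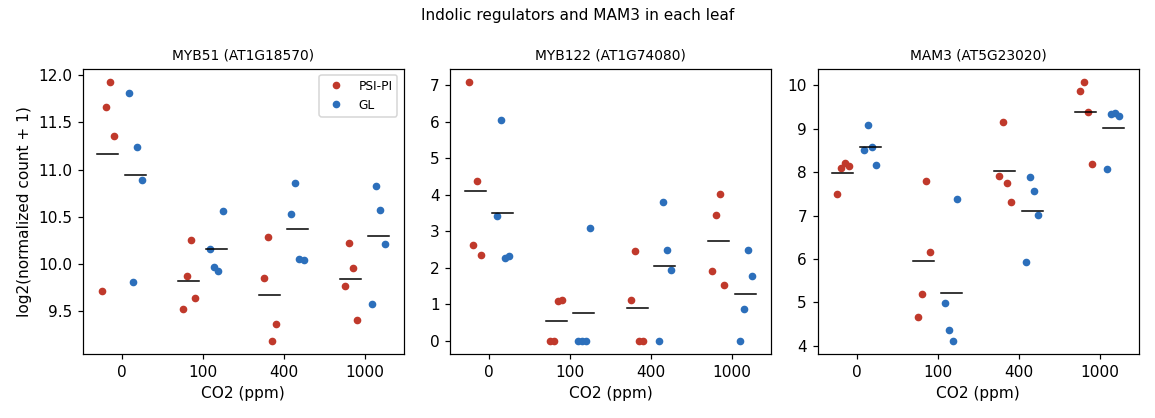
Points are single leaves, PSI-PI in red left of GL in blue, at each CO2 level on the horizontal axis. The vertical axis is log2 of the normalized count plus 1 and black lines are means of 4 leaves. MYB51 and MYB122 show 1 leaf apart from the other 3 at 0 ppm in each light, and MAM3 is lowest at 100 ppm in both lights.

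Chain elongation makes the longer methionine derivatives. MAM3 (AT5G23020), the methylthioalkylmalate synthase that makes chains of all lengths, was the gene of this step with DEGs in most comparisons. In PSI-PI it had 179, 272, 297 and 280 normalized counts at 0 ppm, 24.3, 35.4, 220 and 71.0 at 100 ppm, 240, 570, 213 and 158 at 400 ppm, and 929, 1088, 669 and 289 at 1000 ppm. In GL it had 363, 543, 380 and 285 at 0 ppm, 30.8, 19.7, 16.3 and 167 at 100 ppm, 59.9, 235, 189 and 128 at 400 ppm, and 269, 646, 663 and 630 at 1000 ppm. At 100 ppm, 3 of the 4 leaves in PSI-PI and all 4 in GL were below every leaf at 0 ppm.

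MAM3 rose at 0 against 100 ppm, by 2.03 ± 0.61 on the log2 scale in PSI-PI and 3.37 ± 0.61 in GL (SE, n = 4, limma adjusted p = 0.0119 and 0.000112), and in GL the groups did not overlap. It fell at 100 against 400 ppm, by 2.08 in PSI-PI and 1.88 in GL (limma adjusted p = 0.0146 and 0.0173). The GL difference between 0 and 100 ppm was a DEG without each single leaf. The PSI-PI one was lost without replicate 1 at 100 ppm (1.60, limma adjusted p = 0.0628), and both falls at 100 ppm were lost without some leaves (limma adjusted p up to 0.0673 in PSI-PI and 0.0728 in GL).

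At 1000 against 400 ppm in GL, MAM3 had the largest log2 fold change of the 35 genes, 1.93 ± 0.61, with all 4 leaves above those at 400 ppm (limma adjusted p = 0.195). Its neighbour on chromosome 5, MAM1 (AT5G23010), which makes short chains, was upregulated at 0 against 100 ppm in GL, with 3572, 12490, 6948 and 7421 normalized counts, against 1941, 2390, 4077 and 7299. The groups overlapped, the log2 fold change was 1.01 (limma adjusted p = 0.0434), and the call was lost in 6 of the 8 fits that left out a leaf. MAM1 and MAM3 share 83.8% of their aligned coding bases, with a longest identical run of 30 bases.

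BAT5 (AT4G12030), the plastid carrier for the 2-oxo acids of this cycle, was upregulated at 1000 ppm in PSI-PI, where it had 1392, 998, 1009 and 896 normalized counts, against 185, 673, 197 and 225 at 400 ppm. Every 1000 ppm leaf was above every 400 ppm leaf, and replicate 2 at 400 ppm was well above the other 3. It differed by a log2 fold change of 1.95 ± 0.45 (limma adjusted p = 0.0309). Other enzymes of the cycle were also higher in the same comparison and were not DEGs. The log2 fold change was 1.51 for BCAT4 (AT3G19710), the aminotransferase that starts it, 1.42 for MAM1 and 1.39 for IPMDH1 (AT5G14200), a dehydrogenase. Their limma adjusted p was 0.0862, 0.0597 and 0.111. Of the 6 genes of this step, BCAT3 was lowest there, at 0.35, and BAT5 was the only DEG.

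BCAT3 (AT3G49680), an aminotransferase that also serves branched-chain amino acids, passed the adjusted p without CO2 in GL. It had 818, 1462, 780 and 1025 normalized counts at 0 ppm in GL, against 1457, 1885, 2026 and 1929 at 400 ppm. The groups overlapped in 1 leaf, and the log2 fold change of -0.87 ± 0.15 passed the adjusted p (limma, 9.2e-05) without the 2-fold minimum.

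The aliphatic core enzymes gave 3 of the DEGs at 1000 ppm in PSI-PI. CYP79F1 (AT1G16410), which converts the short-chain and long-chain methionine derivatives to oximes, had 9457, 7915, 7289 and 6378 normalized counts at 1000 ppm in PSI-PI, against 1065, 5573, 1053 and 1175 at 400 ppm. The groups did not overlap, but replicate 2 at 400 ppm was closer to the 1000 ppm leaves than to the rest of its own group. The log2 fold change was 2.22 ± 0.55 (limma adjusted p = 0.0376), and 2.81 without replicate 2 at 400 ppm. The call was lost in 6 of the 8 fits that left out a leaf (limma adjusted p up to 0.158).

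CYP79F2 (AT1G16400), which takes the long-chain derivatives, had 233, 323, 216 and 143 normalized counts at 1000 ppm in PSI-PI, against 16.5, 120, 41.5 and 32 at 400 ppm. It too had no overlap, and its log2 fold change of 2.41 ± 0.51 was the largest of the 35 genes there (limma adjusted p = 0.0213). In GL it had 114, 104, 232 and 150 at 1000 ppm, against 31.8, 52.3, 92.5 and 46.5 at 400 ppm, again without overlap (log2 fold change 1.45, limma adjusted p = 0.256). CYP79F1 and CYP79F2 share 91.9% of their aligned coding bases with a longest identical run of 100 bases, so reads from them could have been divided between the pair when the transcripts were quantified.

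SOT17 (AT1G18590), a sulfotransferase of the last core step, had 921, 1305, 1042 and 724 normalized counts at 1000 ppm in PSI-PI, against 251, 743, 209 and 198 at 400 ppm. Replicate 2 at 400 ppm lay just above the lowest 1000 ppm leaf and the other 3 far below it. The fitted log2 difference was 1.72 ± 0.34 (limma adjusted p = 0.0138). SOT18 (AT1G74090), the other sulfotransferase of the branch, was at 0.53 and was not a DEG.

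The glutathione transferases GSTF11 (AT3G03190) and GSTU20 (AT1G78370), placed in the step that adds sulfur, had log2 fold changes of 1.86 and 1.66 in that comparison and were not DEGs (limma adjusted p = 0.102 and 0.12). CYP83A1 (AT4G13770), which oxidizes the aliphatic oximes, and FMO GS-OX1 (AT1G65860), which oxidizes the sulfur of the side chain, were not DEGs in any of the 12 comparisons.

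UGT74C1 (AT2G31790), a glucosyltransferase assigned to the aliphatic branch, passed the adjusted p between the lights at all 4 CO2 levels. In PSI-PI it had 1313, 1272, 1102 and 1599 normalized counts at 0 ppm, against 476, 1170, 847 and 880 in GL. At 100 ppm the 4 PSI-PI leaves (1550 to 2077) were all above the 4 GL leaves (813 to 1359), at 400 ppm they overlapped in part (1540 to 2092, against 758 to 1566), and at 1000 ppm they were again all above (1899 to 2169, against 911 to 1424). The log2 fold changes of PSI-PI over GL were 0.71, 0.69, 0.60 and 0.75 from 0 to 1000 ppm, each ± 0.22, with limma adjusted p of 0.0463, 0.0413, 0.0420 and 0.0252. All stayed under the 2-fold minimum, and each adjusted p rose above the threshold when some leaf was left out (up to 0.239).

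In the indolic branch, CYP79B2 (AT4G39950) and CYP79B3 (AT2G22330) turn tryptophan into indole acetaldoxime. CYP79B2 had 821, 1650, 1471 and 630 normalized counts at 1000 ppm in PSI-PI, against 339, 490, 118 and 195 at 400 ppm. The groups did not overlap and the log2 fold change was 2.08 ± 0.50 (limma adjusted p = 0.0335). CYP79B3, at 1776, 1820, 1439 and 1256, against 929, 801, 419 and 578, did not overlap either, with a log2 fold change of 1.25 and a limma adjusted p of 0.0552.

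CYP79B2 was also lower at 100 ppm in GL, with 152, 140, 206 and 305 normalized counts, against 465, 494, 639 and 373 at 400 ppm, and the groups did not overlap. In log2 terms the change was -1.33 ± 0.50 (limma adjusted p = 0.0389), and the call was lost in 6 of the 8 fits that left out a leaf. At 0 ppm in GL it had 659, 1532, 510 and 201, and the difference from 100 ppm (1.56, limma adjusted p = 0.0154) was 1.08 and not a DEG without replicate 2 at 0 ppm.

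CYP83B1 (AT4G31500), which oxidizes the indolic oxime, had 20669, 28681, 19762 and 21320 normalized counts at 1000 ppm in PSI-PI, against 12813, 13575, 6995 and 9508 at 400 ppm. All leaves at 1000 ppm were above those at 400 ppm, and the log2 fold change was 1.11 ± 0.30, with a limma adjusted p that rounds to 0.050 and lies just under the threshold. SOT16 (AT1G74100), the indolic sulfotransferase, had 2087, 2998, 1964 and 2225, against 1103, 1333, 809 and 909, also without overlap (1.16 ± 0.28, limma adjusted p = 0.0321).

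Under PSI-PI at 400 ppm these 2 genes were low compared with GL. SOT16 had 1103, 1333, 809 and 909 normalized counts in PSI-PI, against 2958, 2157, 2407 and 2555 in GL, a log2 fold change of -1.29 ± 0.28 (limma adjusted p = 0.000909) that stayed a DEG without each single leaf. CYP83B1 was at 6995 to 13575 in PSI-PI, against 17976 to 24216 in GL (-0.96, limma adjusted p = 0.0168), without overlap but under the 2-fold minimum. Without replicate 3 of PSI-PI at 400 ppm the CYP83B1 difference was -0.78 and no longer passed (limma adjusted p = 0.0831). The 400 ppm PSI-PI leaves are the same leaves that serve as the lower level of the 1000 ppm comparison, so these differences and those at 1000 ppm are not independent of each other.

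CYP81F2 (AT5G57220), which hydroxylates the indole ring, was not a DEG in any comparison, and at 1000 against 400 ppm in PSI-PI its log2 fold change of -0.61 was opposite in sign to the other indolic enzymes. At 0 ppm it had 245, 2103, 1252 and 2205 normalized counts in PSI-PI and 1557, 273, 1670 and 1347 in GL. The low leaves, replicate 1 in PSI-PI and replicate 2 in GL, were the ones low for MYB51.

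In the shared steps, APK1 (AT2G14750) and APK2 (AT4G39940), the kinases that make the sulfate donor of the sulfotransferases, were both upregulated at 1000 ppm in PSI-PI. APK2 had 3601, 3925, 3369 and 2643 normalized counts there, against 877, 2078, 592 and 877 at 400 ppm. The groups did not overlap, and the log2 fold change was 1.76 ± 0.32 (limma adjusted p = 0.00631). APK1 had 3433, 3791, 3337 and 2907, against 1388, 2531, 1110 and 1285, with a log2 fold change of 1.16 ± 0.30 (limma adjusted p = 0.0433).

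UGT74B1 (AT1G24100), the glucosyltransferase of both branches, had 2742, 2877, 2367 and 2603 normalized counts at 1000 ppm in PSI-PI, against 1219, 1700, 915 and 1148 at 400 ppm. No leaves overlapped and the log2 fold change was 1.12 ± 0.23 (limma adjusted p = 0.0180). SUR1 (AT2G20610), the C-S lyase, had 4982, 5580, 4845 and 4801, against 2379, 3695, 2178 and 2513, and its adjusted p was the smallest of the 35 genes in this comparison (0.94 ± 0.16, limma adjusted p = 0.00477), under the 2-fold minimum.

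At 400 ppm, APK2 in PSI-PI was below GL (1693, 2052, 2586 and 1979 in GL), by -1.06 on the log2 scale (limma adjusted p = 0.0148), which was lost without replicate 3 of PSI-PI (-0.81, limma adjusted p = 0.0840). UGT74B1 (-0.91) and SUR1 (-0.58) were also lower in PSI-PI at 400 ppm by the adjusted p alone (limma, 0.00367 and 0.00943). In GL, UGT74B1 was lower than at 400 ppm both at 0 ppm (-0.74, limma adjusted p = 0.0130) and at 100 ppm (-0.76, limma adjusted p = 0.0104), with all leaves below those at 400 ppm in both cases. The difference at 0 ppm was -0.64 and just missed the threshold without replicate 4 of GL at 0 ppm (limma adjusted p = 0.0507).

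Without CO2 in PSI-PI, the shared genes GGP1 (AT4G30530) and APK2 were upregulated. GGP1, a peptidase that trims the glutathione conjugate, had 35369, 11729, 10226 and 8626 normalized counts at 0 ppm, against 5441, 9072, 4626 and 5403 at 400 ppm. Replicate 1 was far above the others. In log2 terms the change was 1.22 ± 0.32 (limma adjusted p = 0.00829), and 0.77 without that leaf, which is below the 2-fold minimum. In GL at 0 ppm GGP1 had 7092, 21522, 10390 and 14416, with replicate 2 the highest. APK2 had 2239, 1817, 3038 and 1712 at 0 ppm in PSI-PI (log2 fold change 1.12 against 400 ppm, limma adjusted p = 0.0144), with the 400 ppm replicate 2, at 2078, inside that range. This call was lost in 2 of the 8 fits that left out a leaf (0.87, limma adjusted p = 0.0803 without replicate 3 at 400 ppm).

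The transporters GTR1 (AT3G47960) and GTR2 (AT5G62680), which import glucosinolates into the phloem, were not DEGs in any comparison. GTR2 was higher at 0 than at 400 ppm by the adjusted p alone in both lights, by 0.63 ± 0.16 in PSI-PI and 0.44 ± 0.16 in GL (limma adjusted p = 0.00724 and 0.0340). The GL difference was 0.32 and no longer passed without replicate 3 at 0 ppm (limma adjusted p = 0.149). In PSI-PI the leaves did not overlap (1102 to 1793 normalized counts at 0 ppm, against 733 to 1089 at 400 ppm).

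The myrosinases TGG1 (AT5G26000) and TGG2 (AT5G25980), which start glucosinolate breakdown and are known from guard cells and phloem idioblasts of Arabidopsis leaves, fell at 0 ppm against 100 and 400 ppm in GL and against 100 ppm in PSI-PI. In GL, TGG1 had 9915, 3456, 2920 and 6895 normalized counts at 0 ppm, against 36422, 60622, 43913 and 28365 at 100 ppm and 33178, 23302, 26399 and 28116 at 400 ppm. The highest 0 ppm leaf was below the lowest leaf of either other level. The log2 fold change was -2.99 ± 0.55 against 100 ppm and -2.42 ± 0.55 against 400 ppm (limma adjusted p = 0.000139 and 0.00136), and both stayed DEGs without each single leaf.

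TGG2 in GL had 6735, 2332, 1862 and 5116 normalized counts at 0 ppm, against 22930, 40613, 29892 and 10860 at 100 ppm and 27058, 14750, 15319 and 15332 at 400 ppm. It did not overlap with either level. The log2 fold changes were -2.74 ± 0.62 against 100 ppm and -2.32 ± 0.62 against 400 ppm (limma adjusted p = 0.00108 and 0.00503). TGG1 and TGG2 share 82.7% of their aligned coding bases, with a longest identical run of 55 bases, and they lie near each other on chromosome 5 (TAIR10.1, chr5:9079452-9082384 for TGG1 and chr5:9072708-9075777 for TGG2).

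In PSI-PI, TGG1 had 12282, 13039, 4944 and 20341 normalized counts at 0 ppm, against 44181, 43264, 55437 and 61135 at 100 ppm, and TGG2 had 9192, 11552, 4000 and 12440, against 30960, 31946, 32150 and 34545. Neither gene overlapped. The log2 fold changes were -2.16 ± 0.55 for TGG1 and -1.92 ± 0.62 for TGG2 (limma adjusted p = 0.00373 and 0.0185). The TGG2 call was lost without replicate 3 at 0 ppm (-1.56, limma adjusted p = 0.0759).

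In PSI-PI the myrosinases varied widely at 400 ppm, where TGG1 had 21088, 5166, 25132 and 38985 and TGG2 10134, 3097, 8451 and 25264 normalized counts. Replicate 2, the leaf highest for all aliphatic genes, was the lowest for both. At 0 against 400 ppm the log2 fold changes were -0.68 for TGG1 and -0.09 for TGG2 (limma adjusted p = 0.397 and 0.943), the leaves overlapped and neither was a DEG. At 100 ppm TGG2 was higher (1.84 ± 0.62, limma adjusted p = 0.0325) and TGG1 missed the threshold (1.48 ± 0.55, limma adjusted p = 0.0528). The TGG2 call was lost in 7 of the 8 fits that left out a leaf. Without replicate 2 at 400 ppm the TGG2 difference was 1.32 (limma adjusted p = 0.152). The difference between the lights in the response to 0 ppm was 1.74 for TGG1 and 2.24 for TGG2 on the log2 scale (limma interaction adjusted p = 0.244 and 0.173), so the effect of 0 ppm was not shown to differ between PSI-PI and GL.

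Guard cell and general leaf markers were set beside the myrosinases. The summed level of the 5 guard cell markers (GC1, FAMA, KAT1, SLAC1 and MYB60, all in the table) was 653 to 908 normalized counts in GL at 0 ppm, against 1022 to 1890 at 100 ppm and 1351 to 1665 at 400 ppm. Against 400 ppm, GC1 (-1.63) and SLAC1 (-1.25) were DEGs on the log2 scale (limma adjusted p = 0.000341 and 0.000657), FAMA (-0.61) passed the adjusted p alone (limma, 0.00504), and KAT1 (-0.11) and MYB60 (-0.28) passed neither. Against 100 ppm only GC1 was a DEG of the 5 by limma (-1.93, adjusted p = 4.21e-05), and SLAC1 (-0.07), FAMA (-0.02), MYB60 (-0.10) and KAT1 (0.36) were not.

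General leaf markers were lower there too, and the 5 summed to 261500 to 456000 normalized counts in GL at 0 ppm, against 982300 to 1162000 at 100 ppm and 765400 to 931500 at 400 ppm. Of these, 4 were DEGs in GL at 0 against 400 ppm by limma, BCA1 (-2.39), LHCB1.2 (-1.78), RBCS3B (-1.58) and RBCS1A (-1.24), with adjusted p of at most 0.00461, and RCA (-0.13) was not. In PSI-PI the guard cell sum was 885 to 1376 at 0 ppm, against 1115 to 1459 at 100 ppm and 1310 to 1567 at 400 ppm, and the leaf marker sum was 415200 to 950800, against 1364000 to 1994000 and 885400 to 1391000. The part of these cell types in the myrosinase values was not tested.

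**Figure D3:**
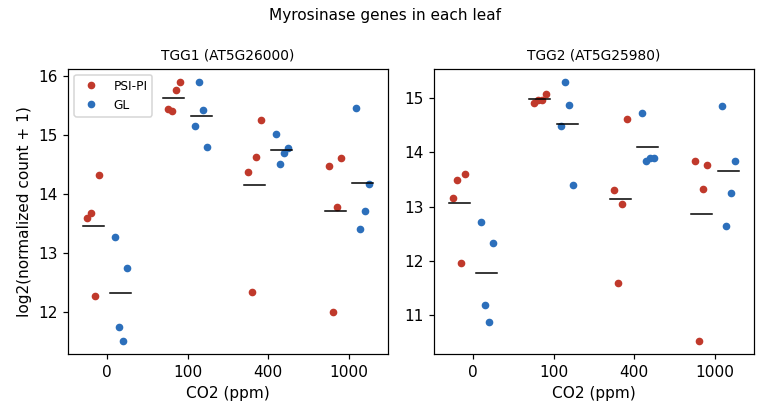
Points are single leaves, PSI-PI in red left of GL in blue, by CO2 level. The vertical axis is log2 of the normalized count plus 1 and black lines are means of 4 leaves. The GL leaves at 0 ppm lie below all GL leaves at 100 and 400 ppm for both genes, and the PSI-PI leaves at 400 and 1000 ppm are spread widely.

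The branches were set against each other by their counts and medians, with no test between lists. At 1000 against 400 ppm in PSI-PI, 4 of the 18 aliphatic, 3 of the 8 indolic and 3 of the 5 shared genes were upregulated. On the log2 scale the difference was above 0 for all 18 aliphatic, 6 of 8 indolic and all 5 shared genes, where 50.4% of all genes were above 0. The medians were 1.40, 1.14 and 1.12 on the log2 scale, against 0.0035 over all genes tested. The leaves did not overlap, with 1000 ppm higher, for 7 aliphatic, 4 indolic and 4 shared genes, where 6.43% of all genes did so. In GL all 18 aliphatic genes were also above 0 (50.3% of all genes), with a median of 0.34, and 5 of 8 indolic genes, with a median of 0.20, but none was a DEG by limma. Genes of a leaf are not independent, so these counts are only a description. In GL at 400 ppm, replicate 1 was the lowest leaf for 17 of the 18 aliphatic genes.

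The response to 1000 ppm was not shown to differ between the lights. Of the 35 genes, 0 passed the interaction (0% of all genes), and 9 had an unadjusted p under 0.05. The log2 differences of the responses, PSI-PI minus GL, were 1.38 for APK2, 0.73 for SUR1 and 1.78 for CYP79F1, with limma adjusted p of 0.455, 0.439 and 0.589. For 0 and 100 ppm, 0 of the 35 passed as well (3% and 0.0466% of all genes), with 8 and 6 at an unadjusted p under 0.05. The counts at an unadjusted p were not set against all genes and are only a description.

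**Figure D4:**
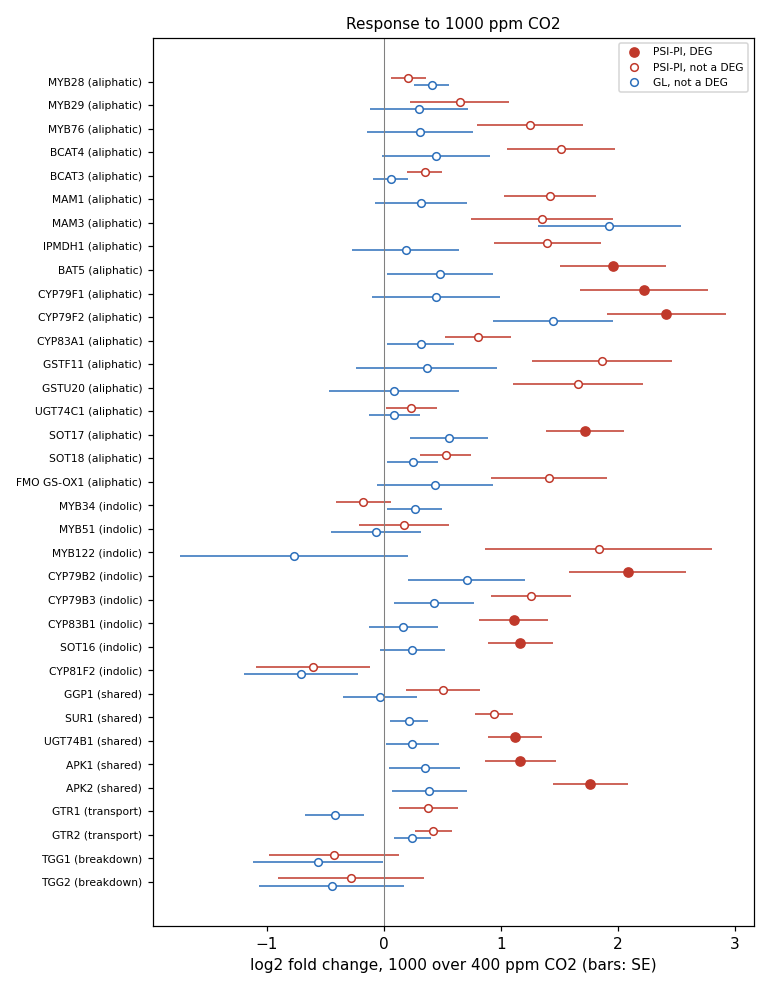
Log2 fold change of 1000 over 400 ppm for each of the 35 genes, PSI-PI in red above GL in blue, with bars for the SE of the limma fit. Filled points are the 10 DEGs, all in PSI-PI, and all 18 aliphatic genes lie right of 0 in both lights.

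At 0 against 400 ppm in PSI-PI, 2 of the 8 indolic genes (MYB51 and MYB122), 2 of the 5 shared genes (GGP1 and APK2) and by limma 0 of the 18 aliphatic genes were upregulated, where 2.31% of all genes were. Of the 18, 3 had an unadjusted p under 0.05, as had 7569 of all 21469 genes. MYB51 was the one of the 4 that stayed a DEG without each single leaf. With only the groups compared in the fit, none of the 4 was a DEG. No test between the branches was made. The median log2 fold changes were 0.65 for the indolic, 0.92 for the shared and 0.19 for the aliphatic genes. None of the 5 indolic enzymes was a DEG there, by limma, with 1 at an unadjusted p under 0.05. In GL at 0 ppm no aliphatic, indolic or shared gene was a DEG by limma, and the medians of the 3 lists were -0.22, 0.13 and -0.13. PSI-PI against GL at 400 ppm gave medians of -0.33 for the aliphatic, -0.83 for the indolic and -0.58 for the shared genes.

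The level of the lists varied between leaves of one group. Replicate 2 of PSI-PI at 400 ppm was the highest leaf of its group for all 18 aliphatic genes and replicate 2 of GL at 0 ppm likewise, and replicate 1 of GL at 400 ppm was the lowest for 17 of 18. The median SD of the aliphatic genes over the 4 PSI-PI leaves at 400 ppm was 0.76 on the log2 scale, and 0.47 for the indolic and 0.42 for the shared genes. The mean log2 level of the 15 aliphatic enzymes and carrier in that group was 8.96, 10.5, 9.15 and 9.24, against 10.5 to 11.1 at 1000 ppm, and that of the 5 indolic enzymes was 10.4, 10.5, 9.47 and 9.72, against 10.8 to 11.3.

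**Figure D5:**
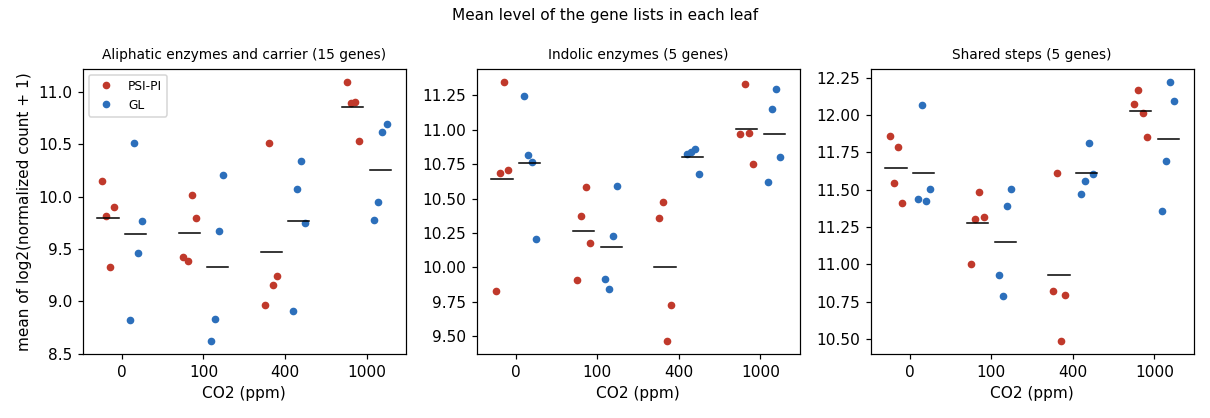
Each point is the mean of log2 of the normalized count plus 1 over a list of genes in 1 leaf, PSI-PI in red left of GL in blue, by CO2 level, and black lines are means of 4 leaves. Among the PSI-PI leaves at 400 ppm, replicate 2 stands above the other 3 for the aliphatic and shared lists. For these lists all PSI-PI leaves at 1000 ppm lie above those at 400 ppm, and some leaves of other groups reach as high.

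The count at 1000 ppm in PSI-PI depended on single leaves. It was 17 without replicate 2 at 400 ppm, when 191 genes in all were DEGs. It was 1, 0 and 1 without replicates 1, 3 and 4 at 400 ppm, when 21, 14 and 28 genes were DEGs. Without replicates 1 to 4 at 1000 ppm it was 4, 1, 2 and 9. Of the 8 fits that left out a leaf, the call was lost in 7 for CYP83B1. It was lost in 6 for CYP79F1, BAT5, CYP79B2, SOT16 and APK1. For CYP79F2 and SOT17 it was lost in 5, for UGT74B1 in 4 and for APK2 in 1. The fold changes moved less, for CYP79F1 between 2.01 and 2.81 and for APK2 between 1.52 and 2.12, and no fold change of the 10 genes changed sign. SUR1 kept an adjusted p under 0.05 (up to 0.0430) without each single leaf. The count at 0 ppm in PSI-PI was 8 without replicate 2 at 400 ppm and 2 without replicate 3. For the fits without a 1000 ppm leaf and for 0 ppm, the counts are of members alone. Whether the members moved more than all genes in these fits was not tested.

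Of 43 other genes of the pathway on a second list, 37 were in the table. At 1000 against 400 ppm in PSI-PI 1 of the 37 was upregulated and 0 downregulated (0.317% and 0.144% of all genes). It was IPMI SSU3, an isopropylmalate isomerase subunit of the chain elongation cycle, named after its values were seen, at 2.16 on the log2 scale (limma adjusted p = 0.0248). In GL 3 rose and 1 fell at 0 against 400 ppm (4.49% and 5.68% of all genes), and 5 rose and 1 fell at 0 against 100 ppm (4.58% and 8.16%). In PSI-PI 2 rose and 1 fell at 0 against 400 ppm (2.31% and 2.36%), and 4 rose and 2 fell at 0 against 100 ppm (3.56% and 6.26%).

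ESM1, a lipase-like protein that steers breakdown towards isothiocyanates, was the other pathway gene with most DEG calls, in 7 of the 12 comparisons. In PSI-PI it had 24031, 19260, 12251 and 17364 normalized counts at 0 ppm, 5271, 8325, 7328 and 7122 at 100 ppm, 17065, 8804, 13550 and 11587 at 400 ppm, and 14103, 4317, 8572 and 10041 at 1000 ppm. In GL it had 7066, 4647, 3241 and 10240 at 0 ppm, 23409, 24248, 19379 and 12129 at 100 ppm, 28089, 31915, 30885 and 34692 at 400 ppm, and 40013, 25648, 25304 and 35299 at 1000 ppm. PSI-PI was above GL without CO2 and below it at every other level, with no overlap between lights at any level.

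ESM1 in PSI-PI over GL was 1.62 at 0 ppm, -1.47 at 100 ppm, -1.34 at 400 ppm and -1.86 at 1000 ppm on the log2 scale, each ± 0.32 (limma adjusted p = 0.00219, 0.00357, 0.00236 and 0.000222). The response to light at 0 ppm differed from that at 400 ppm by 2.96 ± 0.45 (limma interaction adjusted p = 0.000249). No interaction of the 35 genes passed.

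GSL-OH, which hydroxylates an aliphatic side chain, was higher in PSI-PI than in GL at 400 ppm (1.25, limma adjusted p = 0.00408) and at 1000 ppm (1.51, limma adjusted p = 0.00196). IGMT1, a methyltransferase of indolic glucosinolates, rose without CO2 in GL by 1.89 against 400 ppm and 1.36 against 100 ppm (limma adjusted p = 2.6e-05 and 0.000652), and in PSI-PI by 1.06 against 100 ppm (limma adjusted p = 0.00637). SDI1, a repressor of aliphatic synthesis under sulfur limitation, rose without CO2 in all 4 comparisons, by 1.67 to 2.63. At 0 ppm in PSI-PI, replicate 1 had 274 normalized counts and the others 69.1 to 112. In GL at 0 ppm, replicate 2 had 563 and the others 28.9 to 191. Replicate 1 of GL, at 28.9, lay inside the GL range at 400 ppm (11.9 to 31.1). MYC2, a bHLH partner of the MYB factors, rose without CO2 in GL by 2.07 against 400 ppm and 3.20 against 100 ppm (limma adjusted p = 0.0339 and 0.00150). Its GL leaves at 0 ppm had 1263 to 10234 normalized counts, with replicate 2 the highest. They overlapped with those at 400 ppm (279 to 1838) and not with those at 100 ppm (83.7 to 1227).

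GTR3, a transporter related to GTR1 and GTR2, was higher at 100 ppm in PSI-PI than at 400 ppm in PSI-PI (1.05) and than in GL (1.14), and lower at 0 than at 100 ppm in PSI-PI (-1.29). AOP1, a dioxygenase of the family that modifies aliphatic side chains, was lower at 0 ppm in PSI-PI than at 400 ppm (-1.34) and 100 ppm (-1.25). CYP81F3, a relative of CYP81F2, was lower at 100 than at 400 ppm in PSI-PI (-1.12) and GL (-1.26). The limma adjusted p of these values was 0.0182 at most.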

How the data were processed

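Reads were quantified by the authors per replicate with Salmon (v0.12) against an index of TAIR10 cDNA, aggregated to genes by tximport and normalized and compared in DESeq2. The deposited signal values are normalized counts: 95.0% of them are not whole, and whole reads could not be recovered, so no count model was used. The authors' own fold changes and p-values were deposited too and were not used.

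Genes with fewer than 10 normalized counts over the 32 leaves were left out (56 of 21525). The 21469 others entered 1 linear model with a mean for each of the 8 groups, in limma 3.58.1 in R 4.3.3, on log2 of the value plus 1 with a mean-variance trend (24 residual degrees of freedom), for 12 comparisons of groups and 3 interactions. Interactions were called at an adjusted p under 0.05 alone. The added 1 shrinks the fold changes of low genes. Simulated data were used to test the steps. The alternatives were other pseudocounts (0.5 and 5), filters, quantile normalization, no trend, the replicate number as a block, only the groups compared, other call rules and leaving out each leaf.

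The members and lists were chosen with earlier results of these data known. All 35 members are named, as are the 8 other pathway genes with most DEG calls. IPMI SSU3, MYC4, NSP1, IGMT5 and CYP81F4 were named outside this rule, after their values were seen. Sequences and positions are from RefSeq (TAIR10.1). Of the other pathway genes listed, those not matched in the table were not analysed here. Genes were matched by identifier, and reads of close copies may have been divided between them.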

Additional observations from a re-analysis of the deposited data

Results flagged for a closer look

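In 23 of 280 pairs of a gene and a group (8.21%), 1 leaf lay so far from the other 3 that the gap to its nearest neighbour passed Dixon's limit for 4 values. The limit was applied to normalized counts and not to their log2 values. Chance gives this in about 1 in 20 groups where values are normally distributed, which was not tested here. Genes of a leaf are also not independent, so the 8.21% cannot be set against that rate.

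In 9 of the 23 the leaf was replicate 2 of PSI-PI at 400 ppm, each time the highest. All 9 are aliphatic genes. It had 710 normalized counts of MYB29 (372 to 427 in the other 3 leaves), 9485 of MAM1 (3854 to 4480), 673 of BAT5 (185 to 225) and 5573 of CYP79F1 (1053 to 1175). It also had 7960 of CYP83A1 (4687 to 5038), 2823 of GSTU20 (512 to 725), 743 of SOT17 (198 to 251), 1783 of SOT18 (1204 to 1262) and 747 of FMO GS-OX1 (236 to 289).

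At 0 ppm in PSI-PI, replicate 1 was highest for MYB122 (136, and 4.12 to 19.7 in the others), GGP1 (35369, and 8626 to 11729), APK1 (5245, and 2055 to 2586) and GTR1 (3539, and 2031 to 2192). Replicate 3 there was highest for SOT17 (690, and 401 to 440) and CYP79B2 (1277, and 300.35 to 380). At 0 ppm in GL, replicate 2 was highest for CYP79F2 (63.6, and 25.7 to 31.5), MYB122 (64.6, and 3.83 to 9.64) and APK2 (3352, and 1470.14 to 1636).

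The others were in GL too. Replicate 4 at 100 ppm was highest for MAM3 (167, and 16.3 to 30.8) and MYB122 (7.53, and 0 in the other 3). Replicate 1 at 1000 ppm was lowest for MAM3 (269, and 630 to 663), replicate 2 at 1000 ppm was highest for CYP81F2 (1046, and 524 to 579), and replicate 1 at 400 ppm was highest for TGG2 (27058, and 14750 to 15332).

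Of the other genes of the pathway, 2 differed in their response to PSI-PI between 0 and 400 ppm by the interaction test. The response at 0 ppm minus that at 400 ppm was 2.96 for ESM1 and -0.76 for MYC4, a bHLH partner of the MYB factors, on the log2 scale (limma interaction adjusted p = 0.000249 and 0.0179).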

How the results depend on the processing

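Over the settings other than leaving out leaves, the counts of members called stayed within 1.5 times except as follows. With only the groups compared in the fit, the counts were 5 for 1000 against 400 ppm in PSI-PI, 0 for 0 against 400 ppm in PSI-PI, 1 for 100 against 400 ppm in GL, 3 for 0 against 100 ppm in GL and 1 for the interaction at 100 ppm. Quantile normalization gave 1 for 100 against 400 ppm in PSI-PI and 4 for PSI-PI against GL at 400 ppm. The adjusted p alone gave 5 at 0 and 5 at 100 against 400 ppm in GL, 7 at 0 against 400 ppm in PSI-PI, and for PSI-PI against GL 1, 1, 7 and 1 from 0 to 1000 ppm. By that rule 3697 of all 21469 genes were higher and 3559 lower at 0 against 400 ppm in GL. At 100 against 400 ppm in GL these were 3728 and 3663, and at 0 against 400 ppm in PSI-PI 2145 and 2361. For PSI-PI against GL they were 969 and 544 at 0 ppm, and 1425 and 673 at 100 ppm. The unadjusted p with the 2-fold minimum gave 19 for 1000 against 400 ppm in PSI-PI and 2 in GL, and for PSI-PI against GL 2 at 0 ppm and 1 at 1000 ppm. Counts given here without those over all genes show how the calls moved with the setting and are not a result about the members.

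Leaving out each leaf gave 0 to 17 for 1000 against 400 ppm in PSI-PI and 0 to 0 in GL, 2 to 8 for 0 against 400 ppm in PSI-PI and 2 to 3 in GL, and 0 to 3 for 100 against 400 ppm in PSI-PI and 0 to 4 in GL. It gave 4 to 6 for 0 against 100 ppm in PSI-PI and 4 to 7 in GL, 1 to 7 for PSI-PI against GL at 400 ppm, 0 to 1 at 100 ppm, and 0 to 3 for the interaction at 0 ppm. Leaving out replicate 1 of PSI-PI and replicate 2 of GL at 0 ppm together, a choice made after seeing the data, gave 1 for the interaction at 0 ppm, and the other counts stayed within 1.5 times. The counts without a leaf are of members alone and were not set against all genes. The causes were not tested.

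Replicate numbers did not pair the leaves. Same-numbered leaves deviated together with r from -0.505 to 0.283, over 0.1 in 14 of 48 pairs, and 11 of 48 leaves correlated best with their own number. With the replicate number as a block, 9 members were called for 1000 against 400 ppm in PSI-PI and 3 for 100 against 400 ppm in PSI-PI, and the other counts did not move. Leaf spread and 4 leaves a group limit what can be called, and the depth in reads is unknown.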

Other observations

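Replicate 1 of PSI-PI and replicate 2 of GL at 0 ppm stood apart from their groups in several other pathway genes, named after their values were seen. NSP1, which directs breakdown towards nitriles, had 48437 and 48458 normalized counts in these leaves, against 2053 to 8820.4 in the other 6 leaves at 0 ppm. IGMT5, a methyltransferase of indolic glucosinolates, had 20768 and 16253, and CYP81F4, which hydroxylates the indole ring, had 635 and 1827, against 218 to 1782 for IGMT5 and 5.15 to 56.5 for CYP81F4 in the other 6. MYC2 was highest in the same leaves, at 7478 and 10234, against 1263 to 4353. Both leaves were the lowest of their group for MYB51 and CYP81F2.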
